A study of Mus musculus with 2 samples.

Results

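The 10 major histocompatibility complex (MHC) class II genes described here were chosen by symbol, as H2-Aa, H2-Ab1, H2-Eb1, Cd74, H2-DMa, H2-DMb1, H2-DMb2, H2-Oa, H2-Ob and Ciita. All 10 were found among the 32285 features of the count tables, and all 10 had UMIs (unique molecular identifiers, each marking 1 captured RNA molecule) in both libraries. The 2 libraries, 1 per diet, were made from live eYFP+ cells sorted from the stromovascular fraction (SVF) of perigonadal white adipose tissue (gWAT) of male Cyp1a1Cre x R26LSL-eYFP mice. Cre is under the Cyp1a1 promoter in these fate reporter mice, and Cyp1a1 responds to the aryl hydrocarbon receptor (AHR). An eYFP+ cell, or a cell it descended from, had thus switched on Cyp1a1 at some time. Other cells were left out by the sort. The diets lasted 12 weeks and had 10% fat (LFD, low-fat) or 60% fat (HFD, high-fat). FICZ, a ligand of AHR, had been given to both groups (10 mg/kg), and tissue was taken 5 days later. No group without FICZ and no eYFP- cells were analysed here. The mice of a diet were pooled into 1 library, which leaves no replicate, so no difference between the diets could be tested. Each interval in parentheses is a 95% interval for counting error alone and does not cover differences between mice, sorts or libraries.

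MHC class II molecules present peptides from endocytosed proteins to CD4+ T cells. The peptide-binding part is a pair of chains, I-A (H2-Aa and H2-Ab1) or I-E (with H2-Eb1 as the beta chain), which leaves the endoplasmic reticulum bound to the invariant chain, the product of Cd74. In late endosomes the chaperone DM (H2-DMa with a beta chain from H2-DMb1 or H2-DMb2) exchanges the remnant of the invariant chain for peptide, and DO (H2-Oa and H2-Ob) restrains DM. Ciita encodes the co-activator on which most of these genes depend in dendritic cells, B cells and macrophages, the professional antigen-presenting cells. Plasma cells are known to silence Ciita through the repressor encoded by Prdm1 as they form from B cells.

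In GENCODE M21 (assembly GRCm38), 8 of the genes lie on chromosome 17. H2-Oa is at chr17:34092340-34095234 and H2-DMa at chr17:34119541-34139101. H2-DMb2 at chr17:34143307-34151555 and H2-DMb1 at chr17:34153072-34160230 lie next to each other. H2-Ob is at chr17:34238903-34254414, H2-Ab1 at chr17:34257689-34269419, H2-Aa at chr17:34282744-34287823 on the minus strand and H2-Eb1 at chr17:34305867-34316674. Ciita is at chr16:10480059-10528418. The annotation behind the counts was not given in the sources used here.

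Promoters of this family carry the SXY module, which is bound by the RFX complex (X box), CREB family proteins (X2 box) and NF-Y (Y box) and on which the Ciita product acts. The stretches below are shown because genes with this module on chromosome 17 had unlike levels in the same cells. They come from the RefSeq promoter table (250 bases before to 50 after a start, GRCm38.p6), which held 7 of the 10 genes. Capitals mark the letters CNNATGATG, TGACGTCA and TGATTGG on the strand of the gene, searched as forms of the X, X2 and Y boxes. These strings were chosen after these promoters had been read. Each stretch is 68 bases, 5′ to 3′ on the strand of the gene.
H2-Aa, chr17:34287859-34287926, minus strand: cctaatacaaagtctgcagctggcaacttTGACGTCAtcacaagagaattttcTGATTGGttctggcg
H2-Eb1, chr17:34305753-34305820, plus strand: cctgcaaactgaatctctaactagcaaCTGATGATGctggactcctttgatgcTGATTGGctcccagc
H2-DMb2, chr17:34145104-34145171, plus strand: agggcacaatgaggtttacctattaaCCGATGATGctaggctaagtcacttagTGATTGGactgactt
H2-Ob, chr17:34238793-34238860, plus strand: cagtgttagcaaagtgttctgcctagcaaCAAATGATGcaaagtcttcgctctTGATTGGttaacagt
H2-Oa, chr17:34092281-34092348, plus strand: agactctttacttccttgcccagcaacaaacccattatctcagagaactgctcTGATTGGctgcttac
The first and last of these strings were 17 bases apart in H2-Eb1, 18 in H2-DMb2 and 15 in H2-Ob. The promoter of H2-DMb1 held the same pair 18 bases apart and is not printed, since GENCODE places it in the 5′ untranslated region of the gene. The H2-DMb2 stretch lies before the RefSeq start, but in an intron of the GENCODE gene, which begins further upstream. GENCODE also places the last bases of the H2-Oa stretch in the 5′ untranslated region. Of 32851 mouse promoters in the table, 902 (2.75%) held CNNATGATG, 588 (1.79%) held TGACGTCA and 2568 (7.82%) held TGATTGG, each on either strand. On the strand of the gene alone, CNNATGATG followed within 30 bases by TGATTGG was found in 4 (0.0122%), the promoters of H2-DMb1, H2-DMb2, H2-Eb1 and H2-Ob. The other strand was not searched for the pair. The 2 starts listed for H2-DMa held none of the 3 strings on the strand of the gene. These matches describe letters and say nothing of binding.

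After filtering, 9294 of 11281 LFD barcodes and 7879 of 9631 HFD barcodes were kept, with a median of 10214 and 12709 UMIs per cell. The libraries shared 27 barcodes, of which 21 were kept. Cells were clustered without the class II genes, and a name ending in -like rests on marker lists alone. The dendritic cell-like cluster held 113 LFD and 83 HFD cells, with 8 of 10 listed markers raised but none among its 10 leading genes. The B-like cluster held 943 and 722 cells, cycling B-like 205 and 99, macrophage-like 589 and 528, plasma cell-like 198 and 770 and cycling plasma cell-like 197 and 609. Group 2 innate lymphoid cell (ILC2)-like cells numbered 112 and 100, T-like 124 and 127, neutrophil-like 176 and 73 and endothelial-like 673 and 676. The stromal class joined a mixed stromal cluster with progenitor and mesothelial markers (2884 and 1260 cells) with mesothelial-like (1924 and 1603), cycling mesothelial-like (889 and 565) and adipocyte progenitor-like cells (212 and 573). A cluster of 55 and 91 cells was left unnamed.

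Class II UMIs were concentrated in few cells. Dendritic cell-like cells were 1.22% and 1.05% of the LFD and HFD cells and held 24.0% and 17.9% of the class II UMIs. The B-like clusters together were 12.4% and 10.4% of cells and held 54.0% and 45.1%. Macrophage-like cells were 6.34% and 6.70% of cells and held 8.61% and 15.2%. The plasma cell-like clusters were 4.25% and 17.5% of cells and held 7.13% and 17.8%, so their larger part in HFD went with their larger number. The stromal class was 63.6% and 50.8% of cells and held 5.56% and 3.30%.

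The summed level of the 10 genes, in counts per 1000000 UMIs of a cell type (CPM), put the immune types in the same order at the top in both libraries. Values are given for LFD and then HFD. Dendritic cell-like cells were at 46460.3 and 47082 CPM, B-like cells at 17188 and 20928 CPM and cycling B-like cells at 13104 and 13028 CPM. Macrophage-like cells were at 5374 and 7799 CPM, plasma cell-like cells at 2449 and 1720.3 CPM and cycling plasma cell-like cells at 1934 and 1347 CPM. In each library the counting intervals of neighbours in this order did not overlap. Levels below these in both libraries were found in neutrophil-like (1260.2 and 174 CPM), T-like (369.9 and 390.3 CPM) and ILC2-like cells (287 and 646 CPM). The stromal and endothelial types were also low, with mixed stromal (148 and 122 CPM), endothelial-like (101 and 234 CPM), mesothelial-like (95.3 and 79.7 CPM), adipocyte progenitor-like (81.6 and 31.0 CPM) and cycling mesothelial-like cells (69.0 and 66.9 CPM). In LFD the intervals of T-like and ILC2-like cells overlapped. That of adipocyte progenitor-like cells overlapped those of endothelial-like, mesothelial-like and cycling mesothelial-like cells, and those of endothelial-like and mesothelial-like cells overlapped each other. In HFD the level of neutrophil-like cells was below that of endothelial-like cells, and its interval overlapped those of endothelial-like and mixed stromal cells.

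**Figure D1:**
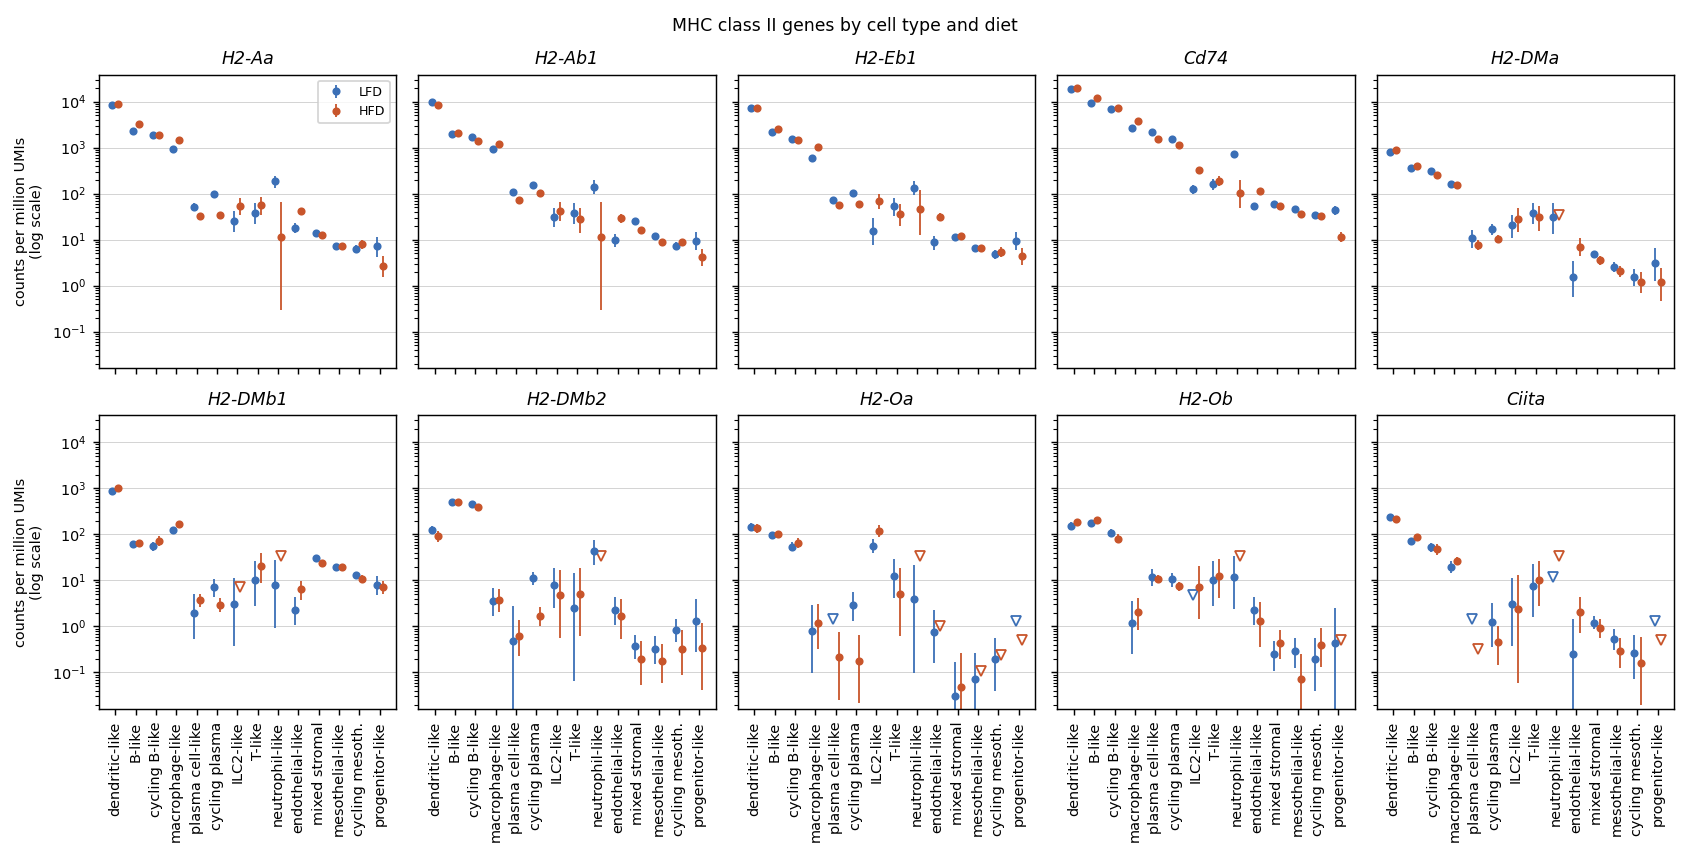
Level of each class II gene (counts per 1000000 UMIs, log axis) in 14 cell types of the LFD and HFD libraries, with points for the level, bars for the 95% Poisson interval and open triangles for the level 3 counts would give where no UMI was found. The peptide-binding chains and Cd74 fall from dendritic cell-like to stromal cells, H2-DMb2 is highest in B-like cells (504 and 511 CPM), and H2-DMb1 is higher in mixed stromal (31.1 and 23.3 CPM) than in plasma cell-like cells (1.95 and 3.70 CPM).

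The 3 peptide-binding chains had similar levels within each antigen-presenting type. H2-Aa was at 8487 and 9033 CPM in dendritic cell-like, 2341 and 3168 CPM in B-like and 919 and 1493 CPM in macrophage-like cells. H2-Ab1 was at 9941 and 8589.9 CPM, 1985 and 2110.5 CPM and 929 and 1185 CPM in these types. H2-Eb1 was at 7309 and 7131 CPM, 2122 and 2524 CPM and 585 and 1001 CPM. UMIs are counted at the 3′ end, 1 per molecule whatever its length, but capture can differ between genes, so ratios between genes are compared between cell types. H2-Eb1 per H2-Aa was 0.861 (0.832 to 0.892) and 0.789 (0.760 to 0.820) in dendritic cell-like, 0.906 (0.879 to 0.935) and 0.797 (0.774 to 0.821) in B-like and 0.637 (0.596 to 0.680) and 0.671 (0.642 to 0.701) in macrophage-like cells.

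Cd74, the invariant chain, had the most UMIs of the 10 genes in each of the 15 clusters of both libraries. It was at 18381 and 19782 CPM in dendritic cell-like, 9474 and 11758 CPM in B-like and 2629.8 and 3766 CPM in macrophage-like cells. Cd74 per H2-Aa was 2.17 (2.10 to 2.23) and 2.19 (2.12 to 2.26) in dendritic cell-like, 2.86 (2.73 to 3.00) and 2.52 (2.44 to 2.61) in macrophage-like and 4.05 (3.95 to 4.14) and 3.71 (3.63 to 3.80) in B-like cells. Plasma cell-like cells stood apart, with 43.7 (36.0 to 53.7) and 46.1 (41.3 to 51.7) Cd74 UMIs per H2-Aa UMI. Cycling plasma cell-like cells had 15.7 (14.0 to 17.7) and 32.3 (29.2 to 35.8), between the B-like and the non-cycling plasma cell-like values in both libraries.

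The beta chain of DM came from different genes in different cells. H2-DMb2 was at 504 (482 to 528) and 511 (486 to 537) CPM in B-like cells, whereas H2-DMb1 was at 61.6 (53.9 to 70.1) and 65.9 (57.3 to 75.5) CPM. In dendritic cell-like cells the order was turned, with H2-DMb1 at 866 (803 to 933) and 1044 (968 to 1125) CPM and H2-DMb2 at 125 (101 to 152) and 91.3 (69.8 to 117) CPM. H2-DMb2 per H2-DMb1 was 8.19 (7.14 to 9.44) and 7.75 (6.70 to 9.0) in B-like and 8.29 (6.62 to 10.5) and 5.55 (4.33 to 7.21) in cycling B-like cells. It was 0.144 (0.115 to 0.178) and 0.0874 (0.0661 to 0.114) in dendritic cell-like and 0.0288 (0.0130 to 0.0553) and 0.0228 (0.0121 to 0.0393) in macrophage-like cells. B-like cells thus had mostly H2-DMb2, and dendritic cell-like and macrophage-like cells mostly H2-DMb1, while the promoters of both genes held the same pair of strings. Dendritic cell-like cells with mature dendritic cell genes had 18 UMIs of H2-DMb2 and 12 of H2-DMb1 in LFD and too few in HFD to compare. LFD neutrophil-like cells had 11 and 2, beside 519 CPM of the 9 B cell markers, whose part in these counts was not tested. In the last 500 bases of the GENCODE transcripts, where 3′ libraries take most reads, the longest run shared by the genes was 34 bases, and 0 of 410 windows of 91 bases were common to both. Over whole transcripts 206 of 1314 such windows were shared, so reads that fall wholly within those could not be told apart.

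**Figure D2:**
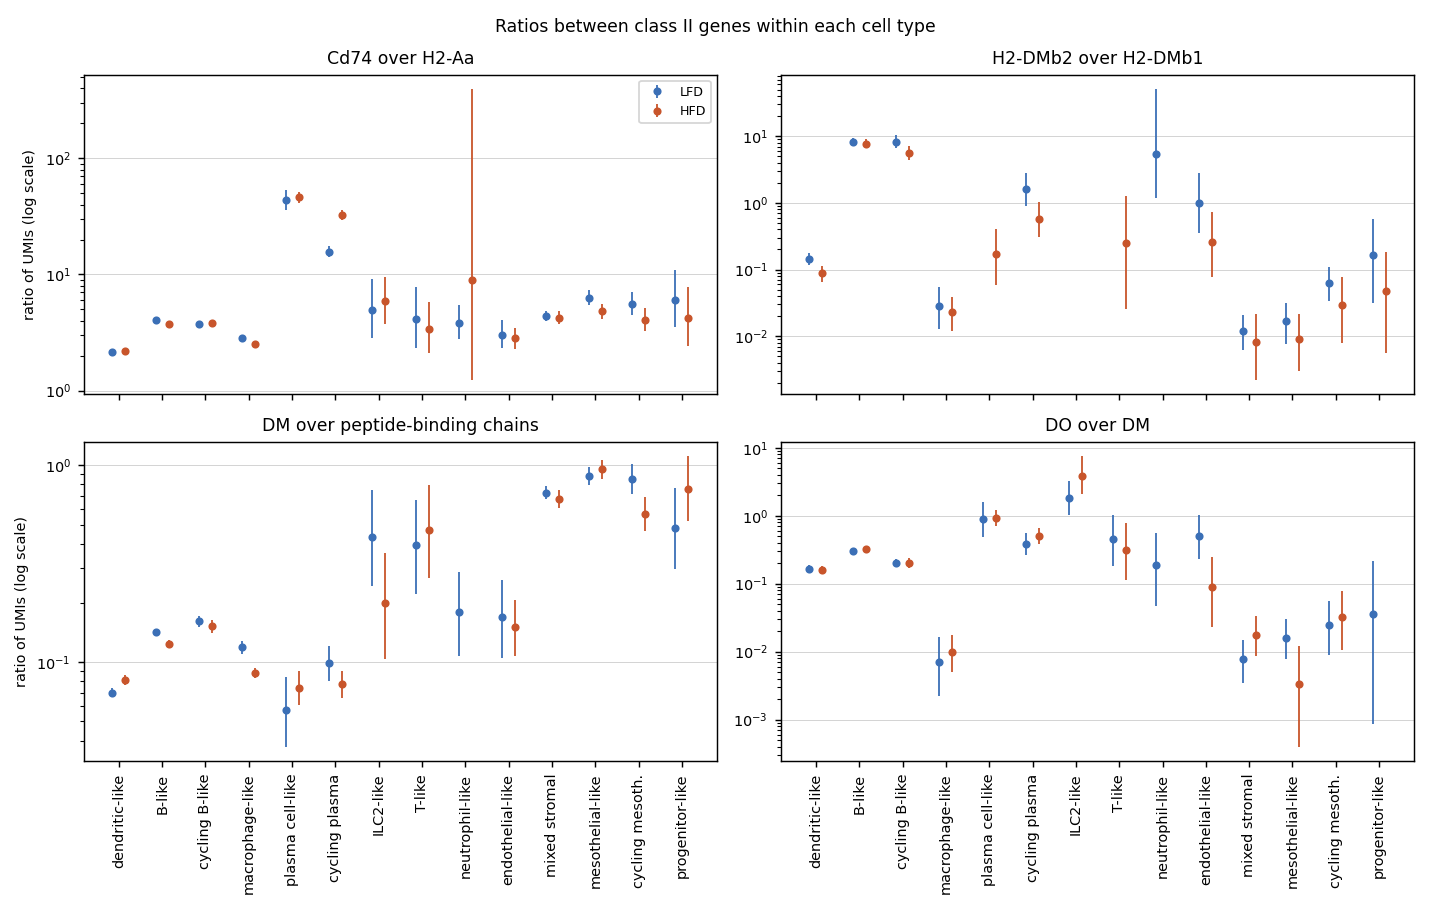
Ratios of UMIs between class II genes within 14 cell types (log axes) for the LFD and HFD libraries, with points for the ratio and bars for the 95% conditional binomial interval. Cd74 per H2-Aa peaks in plasma cell-like cells (43.7 and 46.1), and H2-DMb2 per H2-DMb1 is far higher in B-like (8.19 and 7.75) than in dendritic cell-like cells (0.144 and 0.0874).

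H2-DMa, the alpha chain of DM, was at 810.2 and 875 CPM in dendritic cell-like, 354 and 391 CPM in B-like and 160.1 and 153 CPM in macrophage-like cells. The 3 DM genes per UMI of the peptide-binding chains came to 0.0700 (0.0663 to 0.0738) and 0.0812 (0.0768 to 0.0859) in dendritic cell-like, 0.143 (0.138 to 0.148) and 0.124 (0.119 to 0.129) in B-like and 0.119 (0.110 to 0.129) and 0.0880 (0.0826 to 0.0935) in macrophage-like cells. The ratio was higher in mixed stromal (0.724 (0.671 to 0.781) and 0.673 (0.604 to 0.750)) and mesothelial-like cells (0.882 (0.790 to 0.984) and 0.954 (0.852 to 1.07)), through H2-DMb1. H2-DMa overlaps 4 other annotated genes, 3 of them on the opposite strand.

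Transcripts of DO, the inhibitor of DM, were found in dendritic cell-like and B-like cells and hardly in macrophage-like cells. H2-Oa was at 147 (122 to 176) and 136 (109.6 to 167) CPM in dendritic cell-like and 97.1 (87.3 to 108) and 102 (90.9 to 114) CPM in B-like cells. H2-Ob was at 152 (126 to 182) and 184 (153 to 219.6) CPM and 178 (164 to 192) and 209 (193 to 226) CPM in these types. DO per DM UMI was 0.299 (0.278 to 0.320) and 0.321 (0.298 to 0.345) in B-like, 0.200 (0.174 to 0.229) and 0.202 (0.169 to 0.242) in cycling B-like and 0.166 (0.144 to 0.191) and 0.159 (0.137 to 0.184) in dendritic cell-like cells. Macrophage-like cells had 5 and 11 DO UMIs beside 721 and 1106 DM UMIs, a ratio of 0.00693 (0.00224 to 0.0163) and 0.00995 (0.00495 to 0.0179).

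In ILC2-like cells H2-Oa was found without its partner H2-Ob. H2-Oa had 36 and 51 UMIs there, 56.5 (39.6 to 78.2) and 120.2 (89.5 to 158) CPM, and H2-Ob 0 and 3 UMIs, where 3 counts would stand for 4.71 and 7.07 CPM. The H2-Oa UMIs were spread over 26 of 112 (23.2%) and 35 of 100 (35%) cells, with at most 3 and 4 in a cell. After each cell had been thinned to 2000 UMIs, 16 of 110 (14.5%, 8.55 to 22.5) and 22 of 95 (23.2%, 15.1 to 32.9) cells had an H2-Oa UMI. The neighbouring T-like cluster had an H2-Oa UMI in 4 of 124 (3.23%) and 2 of 127 (1.57%) cells, with median depths of 2272 and 2399 UMIs against 4652 and 3858 in ILC2-like cells. In the 107 and 93 ILC2-like cells with UMIs of at most 1 of 32 markers of other immune types H2-Oa was at 57.1 (39.8 to 79.4) and 114 (82.6 to 153) CPM, so the level was about as large without the others. Those 32 leave out 7 of the 9 B cell markers, since the level of each in ILC2-like cells was at least 25% of that in the whole library. In the 81 and 87 ILC2-like cells with no UMI of the 9 B cell markers H2-Oa was at 56.3 (35.7 to 84.4) and 137 (102 to 181) CPM, and H2-Ob had 0 and 1 UMIs. BC051537, annotated across H2-Oa on the opposite strand, had 0 and 0 UMIs in these cells.

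The remaining class II UMIs of ILC2-like cells sat in few cells. The 5 and 7 cells with UMIs of 2 or more of the 32 markers were at 3534 and 5141 CPM for the sum, and the others at 159.8 (129.8 to 195) and 212 (168 to 263) CPM. Cd74 was at 124 and 318 CPM in all cells and at 52.2 and 67.2 CPM without them. The HFD to LFD ratio of the sum was 2.25 (1.86 to 2.73) in all cells and 1.33 without them. Since those cells were not chosen by most B cell markers, cells with B cell RNA can remain. The 31 and 13 cells with a UMI of any of the 9 B cell markers were at 521 and 2762 CPM for the sum and the others at 157 and 246 CPM, a ratio of 1.57 (1.13 to 2.21). In those others H2-Oa had the most UMIs of the 10 genes in both libraries. T-like cells were at 276 and 179.6 CPM without 6 and 10 cells with UMIs of 2 or more markers of their own such list. In neutrophil-like cells 9 LFD cells held 86.7% of the 323 class II UMIs and the HFD cells had 15 UMIs in all, so no diet difference is read from that cluster.

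Ciita, the co-activator, was counted at 242 (209 to 278) and 215 (182 to 254) CPM in dendritic cell-like, 71.3 (62.9 to 80.4) and 89.1 (79.0 to 100.1) CPM in B-like and 19.7 (14.5 to 26) and 26.9 (21.7 to 33.0) CPM in macrophage-like cells. Per 1000 UMIs of the other 9 genes there were 5.23 (4.52 to 6.02) and 4.60 (3.88 to 5.41) Ciita UMIs in dendritic cell-like, 4.16 (3.68 to 4.70) and 4.28 (3.79 to 4.81) in B-like and 3.67 (2.72 to 4.86) and 3.46 (2.79 to 4.25) in macrophage-like cells. Ciita thus differed less between these types as a share of the class II UMIs than in its level. Non-cycling plasma cell-like cells had 0 and 0 Ciita UMIs, where 3 counts would stand for 1.46 and 0.317 CPM, beside 5030 and 16285 UMIs of the other 9 genes. Cycling plasma cell-like cells had 4 and 5 Ciita UMIs, 0.661 (0.180 to 1.69) and 0.332 (0.108 to 0.776) per 1000 of the others. Dexi is annotated on the opposite strand across part of Ciita.

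The class II RNA of plasma cell-like cells was far above the level that free RNA would give. Free RNA, from broken cells, reaches every droplet. Its amount was estimated as a share of the summed profile of the library, from markers of macrophages, endothelial cells, adipocyte progenitors and mesothelial cells, and the median of the 4 lists was used. For the plasma cell-like clusters together the estimate was 32.8 and 27.5 CPM and the summed level 2138 and 1518 CPM, 65.2 (64.0 to 66.4) and 55.2 (54.6 to 55.8) times the estimate. With the highest of the 4 lists the multiples were 55.5 and 34.2, and without doublet removal 33.2 and 38.5. Cd74 was at 105 and 82.8 times its estimate and H2-Ob at 50.3 (38.1 to 65.2) and 54.5 (47.0 to 62.9) times. H2-Aa was at 17.0 (15.4 to 18.7) and 8.97 (8.32 to 9.66) times and H2-DMb1 at 7.54 (4.93 to 11) and 7.46 (5.80 to 9.46) times.

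Cd74 was found in nearly all plasma cell-like cells, unlike H2-Aa. Cd74 had a UMI in 197 of 198 (99.5%) and 764 of 770 (99.2%) non-cycling plasma cell-like cells. Thinned to 2000 UMIs, 180 of 196 (91.8%) and 679 of 758 (89.6%) of these cells had one, against 18 of 483 (3.73%) and 27 of 505 (5.35%) endothelial-like cells. H2-Aa had a UMI in 45 of 198 (22.7%) and 146 of 770 (19.0%) plasma cell-like cells. Thinned, the H2-Aa shares were 16 of 196 (8.16%, 4.74 to 12.9) and 31 of 758 (4.09%, 2.80 to 5.75), against 12 of 483 (2.48%, 1.29 to 4.30) and 11 of 505 (2.18%, 1.09 to 3.86) endothelial-like cells. Median depths were 10266 and 11724 UMIs in plasma cell-like and 4059 and 3196 in endothelial-like cells.

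Plasma cell-like cells had H2-Ob with little H2-Oa, the reverse of ILC2-like cells. In the non-cycling cluster H2-Ob had 24 and 104 UMIs, 11.7 (7.49 to 17.4) and 11 (8.98 to 13.3) CPM, in 19 of 198 (9.60%) and 92 of 770 (11.9%) cells. H2-Oa had 0 and 2 UMIs there, and a count of 0 in LFD allows up to 1.46 CPM. B-like cells had 1.83 (1.61 to 2.09) and 2.05 (1.79 to 2.35) H2-Ob UMIs per H2-Oa UMI. HFD plasma cell-like cells had 52 (14.0 to 435), and cycling plasma cell-like cells 3.67 (1.72 to 8.71) and 41.5 (11.1 to 348).

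**Figure D3:**
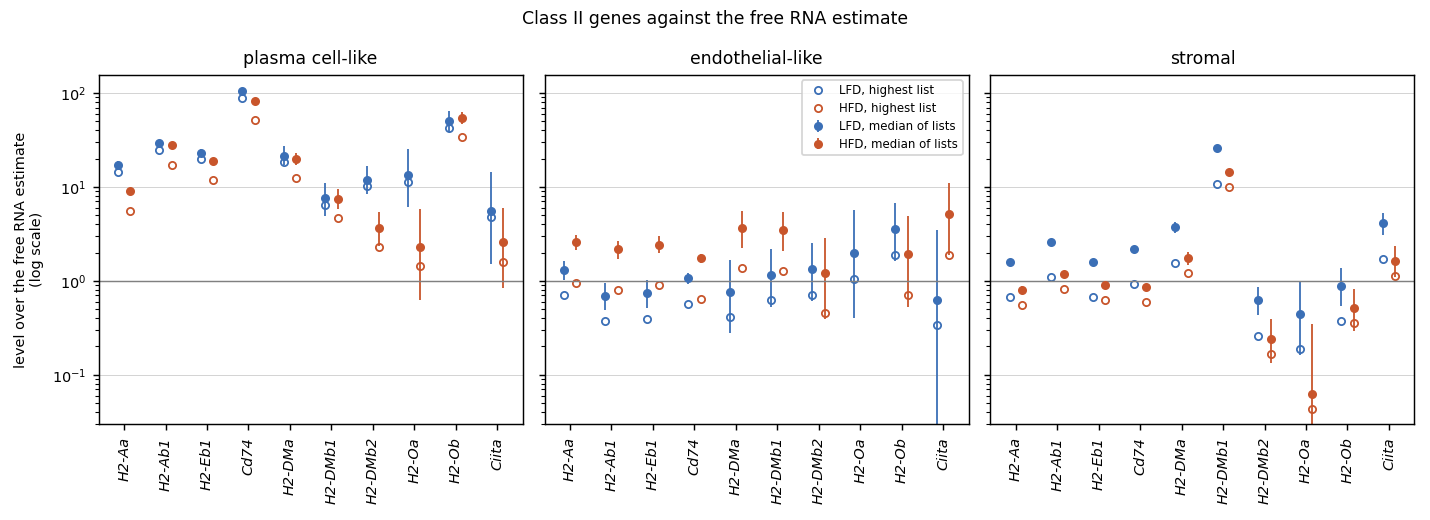
Level of each class II gene over its free RNA estimate (log axis, line at 1) in plasma cell-like, endothelial-like and stromal cells of the LFD and HFD libraries. Filled points use the median of the marker lists, with Poisson intervals, and open points the highest list: plasma cell-like cells are furthest above the line for Cd74 (105 and 82.8), endothelial-like cells scatter around it, and stromal cells are furthest above it for H2-DMb1 (25.8 and 14.4).

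Endothelial cells can carry class II molecules under interferon gamma, but in the endothelial-like cells here the multiple of free RNA depended on the cells and lists used. Their sum was at 101 (91.1 to 111) and 234 (217 to 252) CPM, 1.02 (0.924 to 1.13) and 2.04 (1.89 to 2.19) times the median estimate and 0.551 and 0.755 times the highest. The multiples of the median estimate were 2.34 and 2.31 without doublet removal, 1.34 and 2.83 with cells gated by markers and 1.52 and 0.671 under 5% mitochondrial UMIs. The 4 lists put free RNA at 2.01 to 11.7% of LFD and 3.29 to 17.9% of HFD UMIs. Any class II UMI was found in 15.3% and 14.5% of cells, and 34 cells per library held 82.4% and 90.8% of the UMIs. In HFD 1 cell had 329 of the 699 UMIs.

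The diet difference of endothelial-like cells sat in cells with UMIs of other immune types. All 4 genes with enough UMIs were above 1, where 30.3% of genes were, and the ratio of the sum was 2.32 (2.05 to 2.63). With cells under 5% mitochondrial UMIs it turned to 0.441 (0.325 to 0.592), and all 4 genes turned with it: H2-Aa was at 0.444, H2-Ab1 at 0.467, H2-Eb1 at 0.444 and Cd74 at 0.337. The median mitochondrial share was 5.15 and 4.53%. In the 596 and 618 cells with UMIs of at most 1 of 37 markers of other immune types the sum was at 37.9 (31.3 to 45.3) and 38.6 (31.3 to 47.1) CPM, a ratio of 1.02. The other 77 and 58 cells were at 356 (315 to 401) and 1256 (1158 to 1361) CPM. Without the cell with the most class II UMIs in each library the ratio was 1.51. Cells with UMIs of at least 2 cell cycle genes (132 and 40) were at 68.2 and 746 CPM, but 1 cell in each library held 73 and 329 of their 101 and 350 class II UMIs, and without it they were at 19.2 and 46.8 CPM. The rest were at 121 and 138 CPM, a ratio of 1.15 (0.977 to 1.34).

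Stromal cells had H2-DMb1 well above free RNA, and of the other genes H2-DMa was above the median and the highest estimate beyond counting error in both libraries. In the stromal class H2-DMb1 was at 22.8 (21.8 to 23.9) and 17.9 (16.9 to 19.0) CPM, 25.8 (24.6 to 27.1) and 14.4 (13.6 to 15.3) times the median estimate and 10.9 and 10.0 times the highest. Its neighbour H2-DMb2 was at 0.619 and 0.241 times the median estimate, H2-Oa at 0.446 and 0.0628 and H2-Ob at 0.889 and 0.509. Cd74 was at 2.18 and 0.855 times the median and 0.918 and 0.593 times the highest estimate. H2-Aa was at 1.59 and 0.807 times the median and 0.669 and 0.560 times the highest estimate. H2-DMa was at 3.71 and 1.75 times the median and 1.56 and 1.21 times the highest estimate. Ciita, with 58 and 29 UMIs, was at 4.09 (3.11 to 5.29) and 1.63 (1.09 to 2.34) times the median and 1.72 and 1.13 times the highest. Its HFD level of 0.432 (0.289 to 0.620) CPM was within counting error of the highest estimate of 0.382 CPM.

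H2-DMb1 was graded within the stroma. It was at 31.1 (29.2 to 33.1) and 23.3 (21.3 to 25.5) CPM in mixed stromal, 19.6 (18.0 to 21.4) and 19.4 (17.8 to 21.1) CPM in mesothelial-like and 13.3 (11.5 to 15.2) and 10.9 (9.13 to 12.9) CPM in cycling mesothelial-like cells. Adipocyte progenitor-like cells had 8.03 (4.76 to 12.7) and 7.04 (5.08 to 9.52) CPM and endothelial-like cells 2.32 (1.06 to 4.40) and 6.36 (3.83 to 9.92) CPM. The gene had few molecules per cell and was found in 804 of 2884 (27.9%) and 358 of 1260 (28.4%) mixed stromal cells. Where present it had a median of 1 and 1 UMI and at most 5 and 5. Thinned to 2000 UMIs, 183 of 2871 (6.37%, 5.51 to 7.33) and 55 of 1248 (4.41%, 3.34 to 5.70) mixed stromal cells had one, against 5 of 483 (1.04%, 0.337 to 2.40) and 4 of 505 (0.792%, 0.216 to 2.02) endothelial-like cells. Median depths were 10651 and 16396 UMIs in mixed stromal and 4059 and 3196 in endothelial-like cells. In stromal cells without a UMI of 40 immune markers H2-DMb1 was at 24.0 (22.6 to 25.4) and 16.5 (14.8 to 18.3) CPM, close to the level in all stromal cells. No other annotated gene overlaps H2-DMb1.

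Between diets, the summed level of dendritic cell-like cells had an HFD to LFD ratio of 1.01 (0.998 to 1.03). Of the 10 genes, 3 were above 1 beyond the counting interval and 1 below, where 11.8% of the 3685 genes with at least 50 UMIs were above and 11.8% below. H2-Aa (1.06, 1.03 to 1.10), Cd74 (1.08, 1.05 to 1.10) and H2-DMb1 (1.21, 1.08 to 1.34) were above and H2-Ab1 (0.864, 0.835 to 0.894) below. In cells with UMIs of at least 2 type 1 dendritic cell genes (66 and 63) the sum was at 50681 and 51709 CPM. In cells with mature dendritic cell genes (22 and 9) it was at 27372 and 9869 CPM, which rests on few cells.

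B-like cells had more class II RNA in the HFD library, with 7 of 10 genes above 1 and 0 below. Over all genes 19.6% were above and 14% below, and the median ratio was 1.14 for the class II genes and 1.05 for all genes. H2-Aa (1.35, 1.31 to 1.39), Ciita (1.25, 1.05 to 1.48) and Cd74 (1.24, 1.22 to 1.26) led, followed by H2-Eb1 (1.19, 1.15 to 1.23), H2-Ob (1.18, 1.05 to 1.31), H2-DMa (1.10, 1.02 to 1.19) and H2-Ab1 (1.06, 1.03 to 1.10). H2-DMb2 had a ratio of 1.01 (0.947 to 1.08). The sum was at 18122 and 24441 CPM in cells with follicular B genes (125 and 64 cells), at 17157 and 20702 CPM in cells with B-1 genes (219 and 257) and at 18005 and 21720.1 CPM in non-cycling cells with neither (500 and 337). In the cycling B-like cluster the ratio of the sum was 0.994 (0.973 to 1.02), with 1 gene above and 4 below 1, where 9.95% and 7.88% of genes were. H2-Ob (0.737, 0.560 to 0.964) and H2-Ab1 (0.815, 0.763 to 0.870) were among those below.

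The B-like difference turned with the mitochondrial filter. With cells under 5% mitochondrial UMIs in place of 12.5%, the ratio over both B-like clusters went from 1.19 (1.18 to 1.20) to 0.905. That filter left 114 of 1148 LFD and 20 of 821 HFD cells, as the median mitochondrial share was 7.74 and 8.36%. Cells between 5% and the limit were at 16214 and 19238 CPM.

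**Figure D4:**
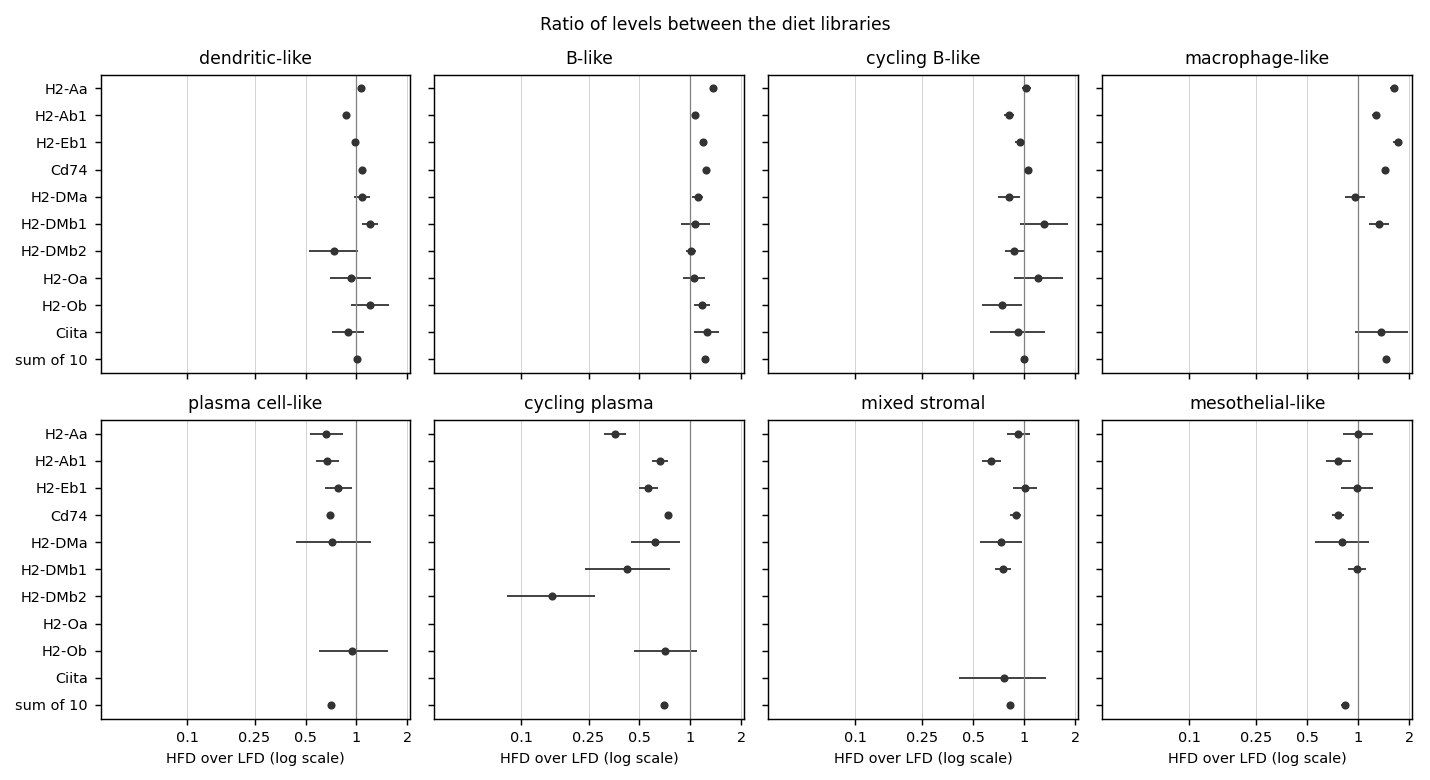
HFD to LFD ratio of the level of each class II gene and of their sum (log axis, line at 1) in 8 cell types, for genes with at least 50 UMIs in both libraries together, with 95% conditional binomial intervals. Most genes lie above 1 in B-like and macrophage-like cells and below 1 in both plasma cell-like clusters, where H2-Aa is at 0.664 and, in the cycling cluster, 0.359.

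Macrophage-like cells also had more class II RNA in the HFD library, with 5 of 7 genes above 1 and 0 below, where 15.8% and 8.81% of 7926 genes were. The median ratio was 1.37 for the class II genes and 1.05 for all genes, and that of the sum 1.45 (1.42 to 1.48). H2-Eb1 (1.71, 1.61 to 1.82) and H2-Aa (1.62, 1.55 to 1.71) led, then Cd74 (1.43, 1.39 to 1.48), H2-DMb1 (1.33, 1.15 to 1.53) and H2-Ab1 (1.28, 1.21 to 1.34). Ciita had a ratio of 1.37 (0.958 to 1.98) and H2-DMa of 0.956 (0.837 to 1.09), whose intervals include 1.

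The level was uneven between macrophage-like cells. No class II UMI was found in 28.7% and 22.5% of cells, the median cell was at 519 and 761 CPM, and the 90th percentile at 15212 and 29443 CPM. H2-Aa had a UMI in 204 of 589 (34.6%) and 257 of 528 (48.7%) cells at median depths of 4282 and 6224 UMIs. Thinned to 2000 UMIs, the H2-Aa shares were 150 of 499 (30.1%, 26.1 to 34.3) and 201 of 491 (40.9%, 36.6 to 45.4). The thinned share of cells with any class II UMI was 61.3% and 64.0%. The HFD library was thus higher in the share of cells with H2-Aa and at the top of the range.

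**Figure D5:**
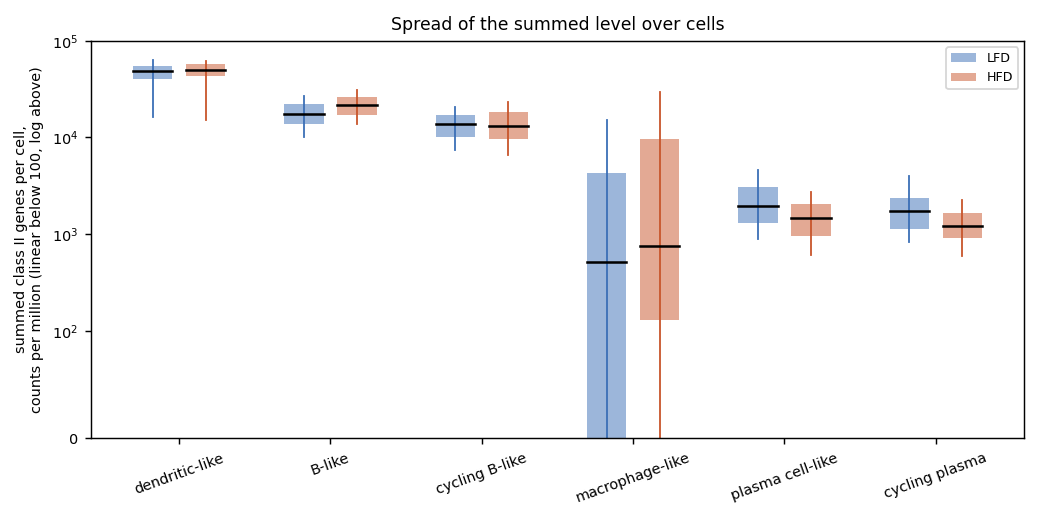
Summed class II level per cell (counts per 1000000 UMIs of the cell, linear below 100 and log above) in 6 cell types of the LFD and HFD libraries, with boxes from the 25th to the 75th percentile, a line at the median and whiskers from the 10th to the 90th percentile. Dendritic cell-like (medians 49225 and 50233 CPM) and B-like cells (17421 and 21666 CPM) had class II UMIs in nearly all cells, and macrophage-like cells spread from 0 to 15212 and 29443 CPM.

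Macrophage-like cells were also grouped by UMIs of at least 2 genes of a list, which depends on depth: the median UMIs of a cell were 4710 and 6512 for cells in 2 or more lists, 3917 and 6507 for those in the lipid-associated list alone and 1369 and 1744 for those in none. Those with monocyte genes (51 and 23) were at 11447 and 27506 CPM, a ratio of 2.40 (2.27 to 2.54). Those with lipid-associated macrophage genes (225 and 147) were at 3043 and 9185 CPM, a ratio of 3.02 (2.89 to 3.15), and those with resident macrophage genes (14 and 36) at 5132 and 7563 CPM. The 267 and 312 cells with several lists were at 6060.0 and 5959 CPM, a ratio of 0.983 (0.956 to 1.01), so the difference was not seen in the cells that were in more than 1 list. The 32 and 10 cells in none were at 5056 and 35414 CPM, a ratio of 7.0 (6.10 to 8.06), the highest of these groups and with the fewest HFD cells. The 10 dendritic cell markers summed to 174 and 252 CPM in macrophage-like cells, with 3 and 2 of them at 0, against 1150.5 and 1544 CPM in dendritic cell-like cells. Their part in the difference was not tested. Without cells with UMIs of 2 or more of 24 markers of other immune types the sum was at 5197 and 7562 CPM. Those 24 leave out 22 of 46 such markers, since each reached at least 25% of its whole-library level in macrophage-like cells. The dendritic cell markers Cd209a, Itgax, Ccr7, Clec10a and Batf3 are among those left out, so cells with dendritic cell RNA can remain.

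Plasma cell-like cells had less class II RNA in the HFD library. The ratio of the sum was 0.703 (0.681 to 0.725) in non-cycling and 0.696 (0.676 to 0.718) in cycling plasma cell-like cells. In the non-cycling cluster 4 of 6 genes were below 1 and 0 above, where 23% and 6.36% of genes were. The median over all genes was itself shifted there, by -0.13 on the log2 scale. H2-Aa (0.664, 0.530 to 0.837), H2-Ab1 (0.671, 0.576 to 0.784), Cd74 (0.700, 0.677 to 0.724) and H2-Eb1 (0.783, 0.651 to 0.946) were below 1, and H2-Ob had 0.940 (0.599 to 1.53). In the cycling cluster 7 of 8 genes were below 1, where 16.6% of genes were, with H2-DMb2 at 0.152 (0.0822 to 0.273), H2-Aa at 0.359 (0.309 to 0.419) and H2-DMb1 at 0.420 (0.238 to 0.757). H2-Eb1 was at 0.565 (0.494 to 0.647), H2-DMa at 0.619 (0.443 to 0.873), H2-Ab1 at 0.659 (0.592 to 0.735) and Cd74 at 0.738 (0.714 to 0.763).

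H2-DMb2, the DM beta chain of B-like cells, had the lowest of these ratios, with 35 and 19 UMIs (11.2 and 1.70 CPM) in cycling plasma cell-like cells. H2-DMb2 per H2-DMb1 was 1.59 (0.907 to 2.85) and 0.576 (0.309 to 1.04) there. H2-Aa had a UMI in 96 of 197 (48.7%) and 197 of 609 (32.3%) cycling plasma cell-like cells, thinned in 32 of 196 (16.3%, 11.4 to 22.3) and 38 of 606 (6.27%, 4.48 to 8.51). The 9 B cell markers summed to 516 and 441 CPM in cycling and 595 and 536 CPM in non-cycling plasma cell-like cells. Their part in the class II difference was not tested.

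In the stromal class 7 of 8 genes were below 1, where 17.4% of genes were below and 45.4% above. The median ratio was 0.727 for the class II genes and 1.08 for all genes, the latter a shift of 0.11 on the log2 scale. The sum was at 112 and 86.2 CPM, a ratio of 0.772 (0.747 to 0.798). H2-DMb1 had 0.786 (0.730 to 0.846), H2-DMa 0.685 (0.557 to 0.840), H2-Ab1 0.654 (0.595 to 0.717) and Cd74 0.769 (0.732 to 0.809). Apart from H2-DMb1 and H2-DMa the genes were at, below or within counting error of the highest free RNA estimate of the class in at least 1 library, so no diet difference is read from them over the class. H2-DMb1 had a ratio of 0.750 (0.672 to 0.837) in mixed stromal and 0.986 (0.873 to 1.11) in mesothelial-like cells, and over the class 1.01 with cells under 5% mitochondrial UMIs. For H2-DMa the ratio was 0.73 (0.546 to 0.972) in mixed stromal cells. Its interval in mesothelial-like cells (0.554 to 1.15) included 1. The other stromal clusters had under 50 H2-DMa UMIs, so no ratio is given. Mixed stromal cells numbered 2884 in LFD and 1260 in HFD, and adipocyte progenitor-like cells 212 and 573. The part of this shift in the class ratios was not tested.

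Of 37 other genes of the pathway (transcription factors, interferon signalling, proteases, co-stimulators and further class II genes), 34 were in the tables. In dendritic cell-like cells 4 of the 27 with at least 20 UMIs had a ratio of at most 0.5, where 3.81% of genes had, and 0 a ratio of at least 2, where 4.52% had. These were the proteases Ctsl (66.1 and 32.9 CPM) and Ctsd (39.9 and 12.0 CPM), the co-stimulator Cd40 (36.1 and 18.0 CPM, with an interval of the ratio that includes 1) and the checkpoint ligand Pdcd1lg2 (62.3 and 25.4 CPM). Cells with mature dendritic cell genes were 22 of 113 LFD and 9 of 83 HFD cells of this cluster, and their part in these ratios was not tested. In B-like cells 1 of 34 had a ratio of at least 2, where 2.83% of genes had, the co-stimulator Cd86 (71.3 and 161 CPM, a ratio of 2.26 (1.94 to 2.63)). In macrophage-like cells 0 of 30 had a ratio of at least 2 and 0 of at most 0.5, where 4.12% and 2.28% of genes had. In cycling plasma cell-like cells 1 of 27 had a ratio of at most 0.5, where 2.4% of genes had, the signalling inhibitor Socs1 (15 and 5.91 CPM, a ratio of 0.393 (0.267 to 0.585)). Prdm1, the repressor of Ciita, had 97 and 479 UMIs in plasma cell-like cells, a ratio of 1.07 (0.860 to 1.35), and 12 and 20 UMIs in B-like cells, a ratio of 1.97 (0.915 to 4.41).

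The same limits were applied to the pathway genes of the other types. In cycling B-like cells 2 of 32 had a ratio of at least 2, where 3.07% of genes had, the co-stimulator gene Cd80 at 2.06 (1.22 to 3.51) and Pdcd1lg2 at 4 (1.49 to 12.5). In the same cells 2 of 32 had a ratio of at most 0.5, where 2.14% of genes had, Irf8, a transcription factor gene of B cells and dendritic cells, at 0.306 (0.199 to 0.456) and the endosomal protease gene Lgmn at 0.414 (0.222 to 0.730). In ILC2-like cells 2 of 20 had a ratio of at least 2, where 7.47% of genes had, Creb1, of the CREB family, at 2.10 (1.45 to 3.04) and Pdcd1lg2 at 2.03 (1.10 to 3.81). In the same cells 3 of 20 had a ratio of at most 0.5, where 5.09% of genes had, Irf8 at 0.25 (0.0472 to 0.857), Ctsl at 0.487 (0.231 to 0.955) and Lgmn at 0.348 (0.199 to 0.578). In T-like cells 1 of 18 had a ratio of at most 0.5, where 3.16% of genes had, Ctsl at 0.432 (0.213 to 0.832). In neutrophil-like cells 2 of 14 had a ratio of at least 2, where 11.5% of genes had, Lgmn at 5.66 (2.61 to 13) and the checkpoint ligand gene Cd274 at 2.67 (1.33 to 5.32). These are listed as values, since no diet difference is read from that cluster. In endothelial-like cells 2 of 25 had a ratio of at least 2, where 7.35% of genes had, Cd40 at 2.97 (1.54 to 6.03) and Cd274 at 2.33 (1.45 to 3.81). The part of the endothelial-like cells with UMIs of other immune types in these 2 ratios was not tested. Several of these rest on under 30 UMIs in a library, and a ratio whose interval includes 1 is within counting error.

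In mixed stromal cells 1 of 26 had a ratio of at least 2, where 3.04% of genes had, the B cell transcription factor gene Pax5 at 2.76 (1.15 to 7.09). In the same cells 1 of 26 had a ratio of at most 0.5, where 4.43% of genes had, Socs1 at 0.391 (0.348 to 0.437). In mesothelial-like cells 1 of 25 had a ratio of at most 0.5, where 2.31% of genes had, the B cell transcription factor gene Spib at 0.356 (0.205 to 0.595). In cycling mesothelial-like cells 1 of 24 had a ratio of at least 2, where 2.89% of genes had, Cd80 at 3.99 (1.4 to 13.9). In the same cells 1 of 24 had a ratio of at most 0.5, where 2.37% of genes had, Irf8 at 0.487 (0.199 to 1.09). In adipocyte progenitor-like cells 2 of 24 had a ratio of at least 2, where 6.97% of genes had, Cd80 at 6.20 (2.75 to 17.3) and Cd274 at 2.26 (0.659 to 12.0). In the stromal class 2 of 30 had a ratio of at least 2, where 4.82% of genes had, Prdm1 at 2.31 (0.932 to 6.23) and Cd80 at 6.21 (4.07 to 9.84). In the same cells 1 of 30 had a ratio of at most 0.5, where 2.92% of genes had, Spib at 0.483 (0.339 to 0.680). The part of free RNA in these stromal ratios, among them those of the B cell genes Pax5 and Spib, was not tested. In both B-like clusters together 3 of 34 had a ratio of at least 2, where 2.53% of genes had, Prdm1 at 2.77 (1.46 to 5.48), Cd86 at 2.16 (1.89 to 2.47) and Pdcd1lg2 at 2.20 (1.58 to 3.08). In both plasma cell-like clusters together 1 of 29 had a ratio of at least 2, where 2.59% of genes had, the co-stimulator gene Icosl at 2.76 (0.679 to 24.2). In the same cells 2 of 29 had a ratio of at most 0.5, where 2.66% of genes had, Socs1 at 0.440 (0.317 to 0.614) and Pdcd1lg2 at 0.391 (0.158 to 1.02).

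The genes whose levels were most like the class II sum over the 28 combinations of 14 cell types and 2 diets were Fgd2 (Pearson's r = 0.942), Pld4 (0.939), Rnase6 (0.938), Napsa (0.918), Wdfy4 (0.916), Pkib (0.900), Ryr1 (0.899), Ly86 (0.893), March1 (0.892) and Ctss (0.873). The correlation was taken on log2(CPM + 1) among 11613 genes and is a description, since the points of a library share its depth and free RNA and both diets share cell types. Ctss encodes the protease that trims the invariant chain, and March1 a ubiquitin ligase that removes class II from the cell surface. Ctss was at 2768 and 2879.9 CPM in macrophage-like and 619.5 and 610.5 CPM in dendritic cell-like cells, the reverse of the order of the class II genes.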

How the data were processed

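Per the submitters' processing notes, reads of the 10x 3′ libraries were processed with Cell Ranger 4.0.0 on mm10, and the authors deposited counts of UMIs per gene and called cell, with no normalization. Empty droplets were not analysed here. Cells with 500 to 40000 UMIs, at least 100 genes and under 12.5% mitochondrial UMIs were kept. Doublets were removed with Scrublet (scanpy 1.11.5) at 0.8% per 1000 barcodes. Cells were integrated and clustered in Seurat 5.3.0 on 1976 variable genes, without class II and pathway genes, with 30 components at resolution 0.3. Naming a cluster took 3 or more markers and 50% of a list, a marker counting if 10% of the cells had it and its level was over 2 times that of the median cluster. Counts were summed per library and cluster. Intervals are exact: Poisson for levels, conditional binomial for ratios and Clopper-Pearson for shares. They cover counting error only. Ratios needed 50 UMIs in both libraries together (pathway genes 20), and a count of 0 was given a limit of 3 counts. Each library held 114311020 and 119498750 UMIs in LFD and HFD. With 1 library per diet no test was run. All 10 genes are named in the text, with pathway genes at a ratio of at least 2 or at most 0.5, or with a role in a result, and the 10 genes most alike. The members and lists were chosen with earlier results of these data known, and the motifs and 3 alternatives that leave out cells (with other immune markers, ILC2-like cells with B cell markers, or the top cell) were chosen after seeing the data. Other alternatives changed doublet removal, filters, scaling, gating, resolution, thinning and the free RNA list.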

Additional observations from a re-analysis of the deposited data

Results flagged for a closer look

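A result is listed here where the HFD to LFD ratio of a gene lay above 1 beyond counting error in 1 cell type and below 1 in another. The difference between the types was not tested, since there is 1 library per diet. For H2-Aa the ratio was 2.27 in endothelial-like and 0.359 in cycling plasma cell-like cells, 6.30 times apart. For H2-Ab1 the ratio was 2.94 in endothelial-like and 0.640 in mixed stromal cells, 4.60 times apart. For H2-Eb1 the ratio was 3.52 in endothelial-like and 0.565 in cycling plasma cell-like cells, 6.23 times apart. For Cd74 the ratio was 2.57 in ILC2-like and 0.148 in neutrophil-like cells, 17.4 times apart. For H2-DMa the ratio was 1.10 in B-like and 0.619 in cycling plasma cell-like cells, 1.79 times apart. For H2-DMb1 the ratio was 1.33 in macrophage-like and 0.420 in cycling plasma cell-like cells, 3.16 times apart. For H2-Ob the ratio was 1.18 in B-like and 0.737 in cycling B-like cells, 1.60 times apart. For the sum of the 10 genes the ratio was 2.32 in endothelial-like and 0.138 in neutrophil-like cells, 16.8 times apart. The neutrophil-like values rest on 9 HFD UMIs of Cd74 and 15 of the sum. The endothelial-like levels were 0.551 and 0.755 times the highest free RNA estimate in LFD and HFD for the sum, 0.699 and 0.951 for H2-Aa, 0.375 and 0.80 for H2-Ab1 and 0.396 and 0.900 for H2-Eb1, and the endothelial-like ratio of the sum was 1.02 without cells with 2 or more other immune markers. Cd74 in ILC2-like cells was at 0.906 and 0.485 times that estimate, and the ILC2-like ratio of the sum was 1.33 without such cells and 1.57 without cells with B cell markers. H2-Ab1 in mixed stromal cells was at 1.73 and 1.37 times it. The gaps of H2-Aa, H2-Ab1, H2-Eb1, Cd74 and the sum are therefore listed as values, and no diet difference is read from their endothelial-like, ILC2-like and neutrophil-like sides.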

How the results depend on the processing

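The HFD to LFD ratio of the class II sum in dendritic cell-like cells went from 1.01 to 1.05 under 5% mitochondrial UMIs and 1.08 with cells gated by markers. That in the B-like clusters together went from 1.19 to 1.15 without doublet removal, 0.905 under 5% mitochondrial UMIs, 1.14 with median-ratio scaling and 1.22 as the mean over cells. That in macrophage-like cells went from 1.45 to 1.29 without doublet removal, 1.54 under 5% mitochondrial UMIs, 1.4 with 2000 to 40000 UMIs, 1.41 with cells gated by markers, 1.38 with median-ratio scaling and 1.69 as the mean over cells. That in the plasma cell-like clusters together went from 0.710 to 0.737 without doublet removal, 0.736 under 5% mitochondrial UMIs, 0.735 with cells gated by markers, 0.784 with immunoglobulin UMIs left out of the total, 0.761 with median-ratio scaling and 0.663 as the mean over cells. That in ILC2-like cells went from 2.25 to 1.54 as the mean over cells, 1.33 without cells with 2 or more other immune markers and 1.57 without cells with B cell markers. That in endothelial-like cells went from 2.32 to 1.41 without doublet removal, 0.441 under 5% mitochondrial UMIs, 1.11 with cells gated by markers, 2.75 at resolution 0.6, 1.03 as the mean over cells, 1.02 without cells with 2 or more other immune markers and 1.51 without the top cell. That in stromal cells went from 0.772 to 0.954 without doublet removal, 0.659 under 5% mitochondrial UMIs, 0.524 with cells gated by markers, 0.714 with median-ratio scaling and 0.708 as the mean over cells. The LFD multiple of free RNA in the plasma cell-like clusters together went from 65.2 to 33.2 without doublet removal, 71.8 under 5% mitochondrial UMIs, 71.5 in cells without UMIs of other immune markers and 55.5 with the highest list. The HFD multiple of free RNA in the plasma cell-like clusters together went from 55.2 to 38.5 without doublet removal, 58.7 under 5% mitochondrial UMIs, 39.9 with cells gated by markers, 54.1 in cells without UMIs of other immune markers, 34.2 with the highest list, 58.2 without cells with 2 or more other immune markers and 58.6 without the top cell. The LFD multiple of free RNA in endothelial-like cells went from 1.02 to 2.34 without doublet removal, 1.52 under 5% mitochondrial UMIs, 1.34 with cells gated by markers, 0.551 with the highest list, 0.798 without cells with 2 or more other immune markers and 0.832 without the top cell. The HFD multiple of free RNA in endothelial-like cells went from 2.04 to 2.31 without doublet removal, 0.671 under 5% mitochondrial UMIs, 2.83 with cells gated by markers, 0.755 with the highest list, 0.790 without cells with 2 or more other immune markers and 1.08 without the top cell. The LFD multiple of free RNA in stromal cells went from 2.56 to 1.35 without doublet removal, 2.08 under 5% mitochondrial UMIs, 4.05 with cells gated by markers, 1.08 with the highest list, 2.96 without cells with 2 or more other immune markers and 2.63 without the top cell. The HFD multiple of free RNA in stromal cells went from 1.11 to 0.954 under 5% mitochondrial UMIs, 1.19 with cells gated by markers, 0.773 with the highest list and 2.49 without cells with 2 or more other immune markers. The share of cells with a class II UMI, thinned to 2000 UMIs, was in macrophage-like cells 61.3% (50.3% at 1000 UMIs, 71.3% unthinned) in LFD and 64.0% (57.2% at 1000 UMIs, 77.5% unthinned) in HFD, in plasma cell-like cells 92.3% (99.5% unthinned) in LFD and 91.6% (73.0% at 1000 UMIs, 99.5% unthinned) in HFD. The same share was in endothelial-like cells 7.04% (15.3% unthinned) in LFD and 9.70% (4.85% at 1000 UMIs, 14.5% unthinned) in HFD, in mixed stromal cells 19.1% (11.8% at 1000 UMIs, 55.0% unthinned) in LFD and 14.4% (8.97% at 1000 UMIs, 54.8% unthinned) in HFD. Ratios of single genes that turned in the B-like clusters together under 5% mitochondrial UMIs were H2-Aa 0.954, H2-Eb1 0.835, Cd74 0.921. Ratios of single genes that turned in endothelial-like cells under 5% mitochondrial UMIs were H2-Aa 0.444, H2-Ab1 0.467, H2-Eb1 0.444, Cd74 0.337. Ratios of single genes that turned in stromal cells under 5% mitochondrial UMIs were H2-DMb1 1.01. Ratios of single genes that turned in endothelial-like cells as the mean over cells were H2-Aa 0.823, Cd74 0.985. Ratios of single genes that turned in stromal cells without doublet removal were H2-Aa 1.04, Cd74 1.03. The cause of these changes was not tested. Of 67 alternative values for ratios of the sum 34 stayed within the counting interval of the main value, as did 23 of 56 for multiples of free RNA and 292 of 390 for ratios of single genes. Filters on cells, doublets and mitochondrial share, also change which cells are in a type. Without doublet removal the stromal class held a cluster of 77 LFD and 99 HFD cells with 9 of 10 plasma cell markers raised. In the same run a cluster of 12 and 75 cells with raised mural and endothelial markers stood outside the endothelial-like cells. The part of these 2 clusters in the changes was not tested. No paired analysis was possible because each diet has 1 library. Depth limits genes under 50 UMIs, for which no ratio is given.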
